A study of Mus musculus with 2 samples.

Results

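Expression and accessibility of 9 genes of neuropeptide and adrenergic signalling were read from joint RNA and chromatin profiles of single nuclei. The nuclei came from mouse intestinal cells that were sorted for CD4 and CD44. The genes were Calca and Penk, which encode peptide precursors, and Calcrl, Ramp1, Ramp3, Vipr1, Vipr2, Nmur1 and Adra1b, which encode receptors or receptor partners. They are 9 of the 32285 genes with a row in the RNA matrices, and all 9 have a row in both libraries. Their accessibility was read from the called peaks within 50 kb of the intervals that the deposited feature table gives for them, which are spans of annotated start sites. These came to 104 of 95717 joint regions, where peaks of both libraries that overlap by at least 1 base were joined.

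In the knockout library the mice were CD4creZfp362flox/flox, so that Cre, under regulatory sequence of Cd4, is made in T cells of these animals. Control mice were Zfp362flox/flox and carried the same floxed alleles without the Cre. All were 26 to 33 weeks old. Cells of the colon and the small intestine were combined and sorted for CD4 and CD44 and against CD62L, CD8a, CD11c, CD45R and F4/80, and their nuclei went into the 10x Multiome kit. The design text gives 7 mice, which may be per genotype or in all, and animals within a library cannot be told apart. Each genotype has 1 library. No difference between genotypes therefore has a replicate check. Intervals given in parentheses are exact 95% intervals and cover counting error only, since nuclei of 1 library are not replicates.

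Calca encodes, by alternative splicing, calcitonin and the peptide CGRP, which sensory neurons of the gut release and which acts through the receptor Calcrl paired with Ramp1. Ramp3 steers the same receptor towards adrenomedullin. Vipr1 and Vipr2 are receptors for vasoactive intestinal peptide, Nmur1 is the receptor for neuromedin U known from type 2 innate lymphoid cells, Penk is the precursor of enkephalin opioid peptides, and Adra1b is an alpha-1 adrenergic receptor for noradrenaline. Such signals are a known route between nerves and lymphocytes in the gut wall, and T cells and innate lymphoid cells can make some of the peptides themselves.

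Nuclei were sorted into 4 classes by their own RNA. Foxp3-positive nuclei hold at least 1 UMI (a counted RNA molecule) of Foxp3, the regulatory T-cell factor, and numbered 249 in the knockout library and 420 in the control library. Cd3-positive nuclei hold a UMI of Cd3d, Cd3e or Cd3g but none of Foxp3. They were split into nuclei with a UMI of Il5 or Il13, type 2 cytokine genes (28 knockout and 38 control nuclei), and nuclei without (1136 knockout and 2073 control nuclei). Cd3-negative nuclei hold neither Foxp3 nor Cd3 UMIs and numbered 933 in the knockout library and 1645 in the control library. The last class is not all without T-cell RNA, since 430 of 933 knockout and 722 of 1645 control nuclei held a UMI of Trac, Trbc1 or Trbc2, the T-cell receptor constant genes. Its summed level of 10 innate lymphoid markers was 5168 CPM (counts per 1000000 UMIs) in the knockout library and 5453 CPM in the control library, against 2211 and 2070.1 CPM in Cd3-positive nuclei without Il5 or Il13. The 9 T-cell receptor genes, of which Cd3d, Cd3e and Cd3g are at 0 by the rule, summed to 1062 CPM in the knockout library and 1057 CPM in the control library, against 3693 CPM (knockout) and 4284 CPM (control) in Cd3-positive nuclei without Il5 or Il13. Enteric neuron and glia markers summed to 175 CPM (knockout) and 163 CPM (control) in Cd3-negative nuclei and to 48.5 and 38.3 CPM in Cd3-positive nuclei without Il5 or Il13, with 4 or 5 of 8 markers at 0 in each. B-cell and plasma-cell markers summed to 732 CPM (knockout) and 844 CPM (control) in Cd3-negative nuclei, with 2 and 3 of 6 at 0, and to 268 and 136 CPM in Cd3-positive nuclei without Il5 or Il13. The part of any of these cells in the results on Cd3-negative nuclei was not tested.

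The libraries held 9348999 UMIs and 34555016 peak counts (knockout) and 10803590 UMIs and 31497489 peak counts (control), over 2346 and 4176 kept nuclei. They shared 11 cell barcodes. Zfp362, the floxed gene, had 52 UMIs (7.25 CPM, 5.41 to 9.51) in knockout nuclei with Foxp3 or Cd3 RNA. In such control nuclei it had 72 UMIs (9.68 CPM, 7.57 to 12.2). Cd3-negative nuclei had 7 Zfp362 UMIs (3.24 CPM, 1.30 to 6.67) in the knockout library and 25 (7.47 CPM, 4.83 to 11.0) in the control library. Because these UMIs are not tied to the floxed part, they do not check the deletion. Depth differed between the libraries in 2 classes above all. The median was 4297 UMIs (knockout) and 2575.5 UMIs (control) in Foxp3-positive nuclei and 6472 and 2366.5 UMIs in Cd3-positive nuclei with Il5 or Il13. Nuclei with over 5000 UMIs supplied 83.4% of the Foxp3-positive UMIs in the knockout library and 49.4% in the control library. Among Cd3-positive nuclei with Il5 or Il13 they supplied 88.5% (knockout) and 16.9% (control). Values without these deep nuclei, which may include droplets with more than 1 nucleus, are given beside the results that turn on them.

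Of the 9 genes, 7 had at least 440 UMIs in each library. Ramp3 was counted 8000 and 7748 times in the knockout and control libraries, and it was found in 1504 and 2288 nuclei. Vipr1 had 7 UMIs in the knockout library and 26 in the control library, and Nmur1 had 16 and 13, so neither was measured well in any class. UMIs of the peptide precursors were concentrated in few nuclei. Nuclei with at least 5 Penk UMIs held 73.3% of them in the knockout library and 62.0% in the control library, and for Calca the shares were 67.0% and 48.9%. For Ramp1, a membrane protein partner, the shares were 4.55% and 0.786%, so its UMIs were mostly single. Levels below are given in CPM and are compared within a gene between classes or libraries, not between genes.

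**Figure D1:**
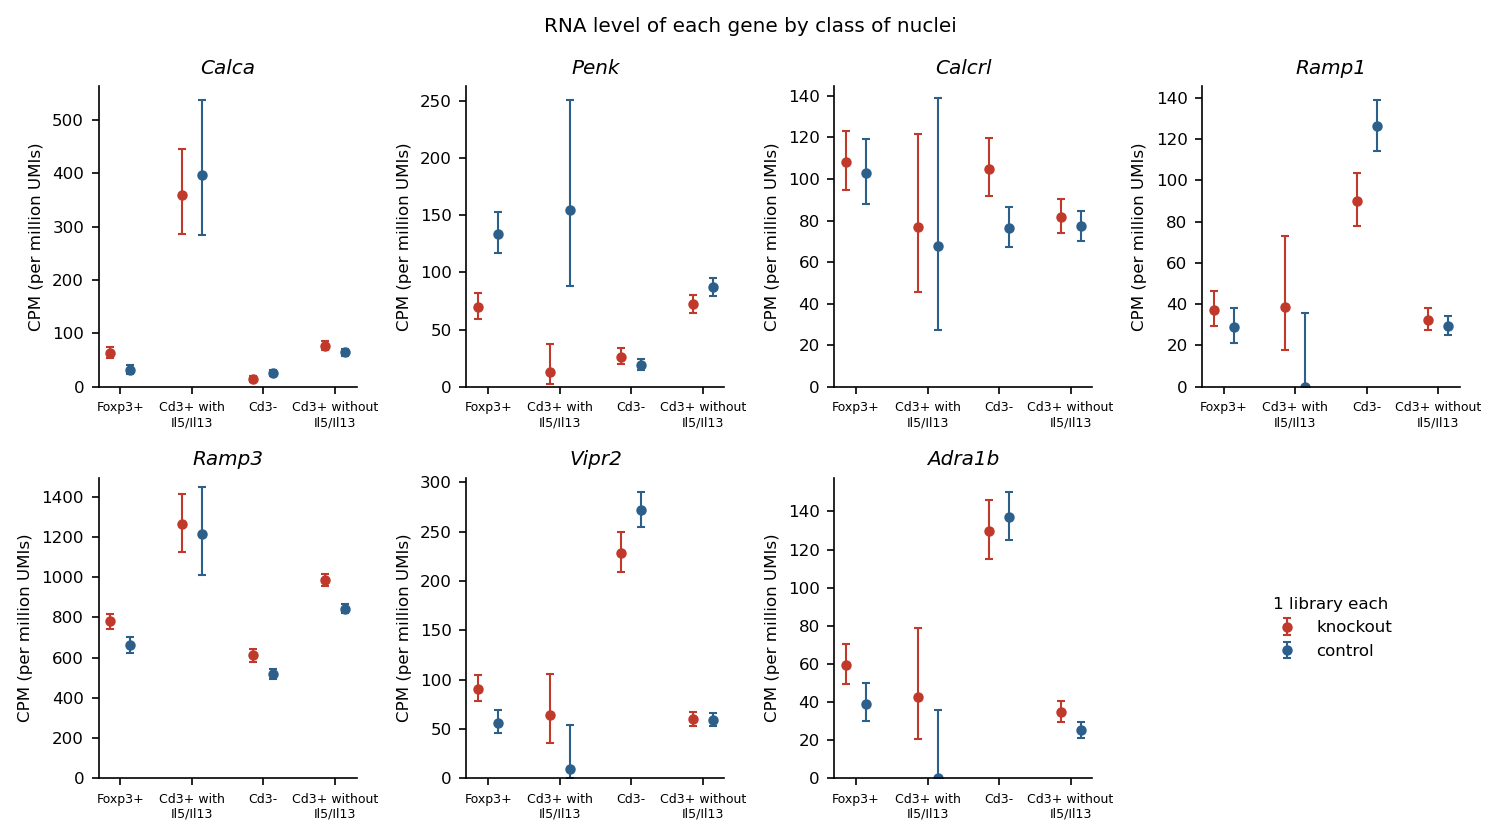
Level of the 7 genes with enough UMIs, in CPM (y axis, linear and starting at 0), in 4 classes of nuclei (x axis) of the knockout library (red, left of each pair) and the control library (blue); points are sums over all nuclei of the class and bars are exact 95% counting intervals. Calca stands highest in Cd3-positive nuclei with Il5 or Il13 in both libraries (359 and 396 CPM), and Ramp1, Vipr2 and Adra1b stand highest in Cd3-negative nuclei.

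The clearest class for Calca was the small one with type 2 cytokine RNA. Calca had 359 CPM (287 to 445; 84 UMIs) in knockout and 396 CPM (284 to 537; 41 UMIs) in control Cd3-positive nuclei with Il5 or Il13. The same gene had 76.9 CPM (69.2 to 85.2) in knockout and 64.4 CPM (57.9 to 71.3) in control Cd3-positive nuclei without these cytokines. The log2 ratio between these classes was 2.23 (1.87 to 2.57) in the knockout library and 2.64 (2.12 to 3.09) in the control library. A gene was counted as higher or lower by class where this log2 ratio was at least 1 in size, in the same direction in both libraries, with at least 20 UMIs over both classes in each. Of the 7 genes with enough UMIs, only Calca passed in this contrast, against 2.15% of all 10056 genes measured there that passed as higher. In the knockout library, 1 nucleus held 29 of the 84 UMIs, and the ratio without the nucleus richest in Calca in each library was 1.62 (knockout) and 2.69 (control). In the control library that nucleus lay in the class without these cytokines. The control value is therefore no check on single nuclei of the class with them, where 1 nucleus held 12 of the 41 UMIs. With nuclei over 5000 UMIs left out, the knockout ratio rested on 4 UMIs and was 1.22 (-0.84 to 2.44), while the control ratio was 2.81 (2.27 to 3.28).

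Some type 2 markers were also higher beside Calca in nuclei that held no Il5 or Il13. Calca was found in 95 knockout and 125 control nuclei of the Cd3-positive class without Il5 or Il13. Of the 8 type 2 markers with UMIs there, 3 were higher by a log2 ratio of at least 1 in both libraries in nuclei with Calca, and 0 were lower. Hs3st1, a heparan sulfate sulfotransferase, was higher than in nuclei of the class without a Calca UMI by a log2 ratio of 2.90 in the knockout library and 2.47 in the control library, on 12 and 18 UMIs in all. Pparg, a nuclear receptor used by type 2 T cells, was higher by 2.05 and 2.24, and Il17rb, a chain of the IL-25 receptor, by 1.15 and 2.29. The type 2 factor Gata3 differed by 0.51 and 0.69, and the T-cell receptor gene Trac by -0.10 and -0.18. Il4, which encodes the type 2 cytokine IL-4, differed by -0.15 (-0.89 to 0.48) in the knockout library and by 2.45 (2.13 to 2.75) in the control library. Nuclei with a Calca UMI were deeper (medians 5077 and 2827 UMIs) than nuclei without (2651 and 2069.5), and the part of depth in these ratios was not tested. The 4 knockout and 8 control Cd3-negative nuclei with Il5 or Il13 held 3 and 6 Calca UMIs, in 1 knockout and 2 control nuclei, so they give no level.

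In Foxp3-positive nuclei Calca had 63.3 CPM (53.2 to 74.8; 138 UMIs) in the knockout library and 31.2 CPM (23.3 to 41.0; 52 UMIs) in the control library. A single knockout nucleus held 28 of the 138 UMIs. Over Cd3-positive nuclei without Il5 or Il13 the log2 ratio was -0.28 (-0.57 to 0.01) in the knockout library and -1.03 (-1.49 to -0.62) in the control library. Among nuclei of up to 5000 UMIs the ratios lay closer together, at -2.01 (-3.59 to -0.97) and -1.83 (-2.73 to -1.13). In Cd3-negative nuclei Calca was low, with 13.9 CPM (9.36 to 19.8) in the knockout library and 26.3 CPM (21.1 to 32.4) in the control library. The ratio over Cd3-positive nuclei without Il5 or Il13 was -2.45 (-3.06 to -1.93) and -1.29 (-1.64 to -0.95), so Calca passed as lower there. What remained in Cd3-negative nuclei lay mostly where T-cell receptor RNA was found. Cd3-negative nuclei with a Trac or Trbc UMI had 21.0 CPM of Calca in the knockout library and 44.6 CPM in the control library, and those without had 6.56 and 11.4 CPM. Seen per nucleus at an equal depth of 1000 UMIs, Calca was found in 21.4% (knockout) and 22.2% (control) of Cd3-positive nuclei with Il5 or Il13, 2.06% and 2.39% of Foxp3-positive nuclei, 0.681% and 1.48% of Cd3-negative nuclei, and 3.78% and 3.26% of Cd3-positive nuclei without Il5 or Il13. Before thinning these shares were 35.7% and 23.7%, 12.4% and 5.95%, 1.61% and 1.82%, and 8.36% and 6.03%. No class here can be taken to lack the gene, so the share that free RNA gives was not measured.

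The upstream window of Calca is shown because it holds 3 of the 6 motifs searched. It is the 250 bases before the RefSeq start at chr7:114636358-114636607 on the minus strand (GRCm38.p6, the patch release of mm10), printed 5′ to 3′ with matches in capitals.

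Calca: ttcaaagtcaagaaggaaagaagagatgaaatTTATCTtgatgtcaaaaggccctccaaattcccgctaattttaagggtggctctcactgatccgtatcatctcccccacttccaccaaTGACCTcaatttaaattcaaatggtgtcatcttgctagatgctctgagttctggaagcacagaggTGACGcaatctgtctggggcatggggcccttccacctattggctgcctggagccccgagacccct

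Capitals mark TTATCT, the reverse complement of the GATA motif AGATAA, then TGACCT, the reverse complement of the nuclear receptor half-site AGGTCA, and TGACG, the half-site of the cAMP response element. Over 32851 RefSeq promoter windows of this length, both strands read, AGATAA was in 9.99%, AGGTCA in 14.0% and TGACG in 17.8%. TGACGTCA, the full element, which contains the half-site, was in 1.55%, and the AP-1 motif TGANTCA and the E-box CACGTG were in 6.75% and 6.02%. A match describes letters and is not evidence of binding. No peak was called over this window, and the promoter peak of Calca lies just inside the gene.

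Penk, the enkephalin precursor, followed T cells with and without Foxp3. It had 70.2 CPM (59.5 to 82.2; 153 UMIs) in knockout Foxp3-positive nuclei and 134 CPM (117 to 153; 223 UMIs) in control Foxp3-positive nuclei. Cd3-positive nuclei without Il5 or Il13 had 72.1 CPM (64.6 to 80.1) in the knockout library and 87.3 CPM (79.8 to 95.3) in the control library. Cd3-negative nuclei were lowest among the large classes, with 25.9 CPM (19.6 to 33.6) in the knockout library and 19.1 CPM (14.7 to 24.4) in the control library. Their log2 ratio over Cd3-positive nuclei without Il5 or Il13 was -1.47 (-1.91 to -1.07) and -2.18 (-2.59 to -1.81), which passed as lower. In Cd3-positive nuclei with Il5 or Il13, Penk had 3 UMIs in the knockout library and 16 in the control library, 14 of these in 1 nucleus, so the class gives no level.

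Within Foxp3-positive nuclei Penk differed by depth more than by genotype. Nuclei with over 5000 UMIs had 56.7 CPM of Penk in the knockout library and 63.2 CPM in the control library. Shallower nuclei had 138 CPM (knockout) and 203 CPM (control). The ratio of Foxp3-positive nuclei over Cd3-positive nuclei without Il5 or Il13 was -0.04 (-0.32 to 0.24) in the knockout library and 0.62 (0.38 to 0.85) in the control library. Among nuclei of up to 5000 UMIs it was 0.55 (0.06 to 0.99) and 1.10 (0.84 to 1.36), higher in Foxp3-positive nuclei in both libraries but past 1 only in the control library. Foxp3-positive nuclei with a Penk UMI had less Il10, an anti-inflammatory cytokine gene, than those without, by a log2 ratio of -1.08 in the knockout library and -0.63 in the control library. Ctla4, an inhibitory receptor of regulatory T cells, differed by -0.45 and -0.42. Of the 8 regulatory T-cell markers, 0 were higher and 0 were lower by at least 1 in both libraries. The part of depth in these ratios was not tested.

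Among Cd3-positive nuclei without Il5 or Il13, the 71 knockout and 124 control nuclei with a Penk UMI were compared with the rest of the class. Of 8 type 2 markers with UMIs, 3 were higher by at least 1 in both libraries and 1 was lower, and of the 8 regulatory T-cell markers 0 passed that size. Klrg1, a receptor of effector lymphocytes, was higher by a log2 ratio of 1.31 in the knockout library and 1.96 in the control library. Il1rl1, the IL-33 receptor, was higher by 1.21 and 1.46, and Areg, the growth factor amphiregulin, by 1.12 and 1.11. Il4 was lower, at -1.65 and -2.95. Tnfrsf4 (OX40) was higher by 0.77 and 0.97, and Ikzf2, a factor shared with regulatory T cells, by 0.66 and 0.97. Nuclei with low Foxp3 RNA can fall in this class by missing a UMI, and their share was not tested. Nuclei with Penk were deeper here too, with medians of 4728 and 2698.5 UMIs against 2670.0 and 2064 UMIs without.

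Calcrl, the receptor chain for CGRP and adrenomedullin, differed little between classes. It had 108 CPM (94.9 to 123) in knockout and 103 CPM (87.9 to 119) in control Foxp3-positive nuclei, 77.0 CPM (45.6 to 122) and 67.5 CPM (27.2 to 139) in Cd3-positive nuclei with Il5 or Il13, and 105 CPM (91.7 to 120) and 76.5 CPM (67.4 to 86.4) in Cd3-negative nuclei. Cd3-positive nuclei without Il5 or Il13 had 81.9 CPM (74.0 to 90.5) in the knockout library and 77.2 CPM (70.2 to 84.8) in the control library. Foxp3-positive nuclei lay above Cd3-positive nuclei without Il5 or Il13 by a log2 ratio of 0.40 (0.16 to 0.64) in the knockout library and 0.41 (0.15 to 0.67) in the control library, under the size of 1. Without nuclei over 5000 UMIs these ratios were 0.77 (0.26 to 1.22) and -0.25 (-0.70 to 0.15). A single knockout Cd3-negative nucleus held 26 of that class's 227 UMIs. The few Cd3-negative nuclei with Il5 or Il13 held 9 Calcrl UMIs in each library, all of them in 1 knockout nucleus and 8 of 9 in 1 control nucleus, so they give no level.

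Ramp1, which makes Calcrl a CGRP receptor, was higher in Cd3-negative nuclei. There it had 90.1 CPM (77.9 to 104) in the knockout library and 126 CPM (114 to 139) in the control library, and Cd3-positive nuclei without Il5 or Il13 had 32.6 CPM (27.6 to 38.1) and 29.3 CPM (25.0 to 34.1). The log2 ratio was 1.47 (1.16 to 1.78) in the knockout library and 2.10 (1.84 to 2.37) in the control library. Foxp3-positive nuclei had 37.2 CPM (29.5 to 46.2) and 28.8 CPM (21.3 to 38.2), within the counting error of the last class. Cd3-positive nuclei with Il5 or Il13 had 9 UMIs in the knockout library and 0 in the control library, where the limit that a count of 0 allows (3 counts) is 28.9 CPM. Among Cd3-negative nuclei, Ramp1 was higher where no Trac or Trbc UMI was found, with 117 CPM (knockout) and 166 CPM (control), than where such a UMI was found, with 63.8 and 77.2 CPM. Nuclei of the class with a Ramp1 UMI had less Themis, a T-cell gene, by log2 ratios of -2.60 and -2.73. They also had less Ncr1, a natural killer receptor, by -1.45 and -1.94, on 57 and 59 Ncr1 UMIs. Of the 10 innate lymphoid markers, 0 were higher and 1 was lower by at least 1 in both libraries. Of 6 T-cell receptor genes with UMIs there, 3 were lower by that size.

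Ramp3, the partner that gives Calcrl its adrenomedullin affinity, ran the other way. It had 779 CPM (743 to 817) in knockout and 661 CPM (622 to 701) in control Foxp3-positive nuclei, 1262 CPM (1122 to 1415) and 1216 CPM (1013 to 1447) in Cd3-positive nuclei with Il5 or Il13, and 611 CPM (578 to 645) and 519 CPM (495 to 544) in Cd3-negative nuclei. Cd3-positive nuclei without Il5 or Il13 had 984 CPM (956 to 1013) in the knockout library and 844 CPM (820 to 868) in the control library. The order of the 4 classes was the same in both libraries, and no interval overlapped that of a neighbouring class. None of the log2 ratios reached 1: they were 0.36 and 0.53 for nuclei with Il5 or Il13 (0.92 and 0.43 without deep nuclei), -0.34 and -0.35 for Foxp3-positive nuclei and -0.69 and -0.70 for Cd3-negative nuclei. Within Cd3-negative nuclei, those with a Trac or Trbc UMI had 837 CPM (knockout) and 710 CPM (control) and those without had 378 and 363 CPM. The gene overlaps Gm11978 on the other strand, which has no row, and whether counting used strand is not given in the sources used here.

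Ramp1 was seen more often beside Calcrl in Foxp3-positive nuclei, and the nuclei with Calcrl were also deeper. Of Foxp3-positive nuclei with a Calcrl UMI, 33.0% (knockout) and 22.8% (control) also held Ramp1, against 12.0% and 5.28% of those without Calcrl. Median depths were 12523 and 5362 UMIs with Calcrl and 3031 and 2293 UMIs without. After thinning to 1000 UMIs, 0 of 20 knockout and 0 of 28 control Foxp3-positive nuclei with Calcrl held Ramp1 (intervals up to 16.8% and 12.3%), against 3.14% and 2.31% of those without, which is too few nuclei to compare. In Cd3-negative nuclei, where depths were alike, Ramp1 was in 17.9% (knockout) and 24.2% (control) of nuclei with Calcrl and in 15.7% and 19.5% of nuclei without, and these intervals overlap. Ramp3 was in 40.2% (knockout) and 42.7% (control) of Cd3-negative nuclei with Calcrl and in 46.8% and 40.4% of those without.

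Vipr2, a receptor for vasoactive intestinal peptide, was also higher in Cd3-negative nuclei. It had 228 CPM (209 to 249) in the knockout library and 272 CPM (255 to 290) in the control library there, and 59.7 CPM (52.9 to 67.0) and 59.6 CPM (53.4 to 66.3) in Cd3-positive nuclei without Il5 or Il13. The log2 ratio was 1.94 (1.72 to 2.15) in the knockout library and 2.19 (2.01 to 2.37) in the control library. After thinning to 1000 UMIs, 19.2% (knockout) and 18.8% (control) of Cd3-negative nuclei held a Vipr2 UMI, against 4.68% and 3.46% of Cd3-positive nuclei without Il5 or Il13. Before thinning the shares were 29.0% and 29.4%, against 11.7% and 7.57%. Foxp3-positive nuclei had 90.8 CPM (78.6 to 104) in the knockout library and 56.4 CPM (45.6 to 69.1) in the control library, and their nuclei of up to 5000 UMIs had 30.4 and 26.1 CPM. Their log2 ratio over Cd3-positive nuclei without Il5 or Il13 was 0.61 (0.34 to 0.87) in the knockout library and -0.073 (-0.42 to 0.26) in the control library, and -0.17 (-1.29 to 0.69) and -0.82 (-1.56 to -0.21) without deep nuclei. Cd3-positive nuclei with Il5 or Il13 had 15 UMIs (64.2 CPM) in the knockout library and 1 UMI (9.65 CPM) in the control library. Vipr2 overlaps Gm20658 on the other strand, a row with 274 UMIs in the knockout library and 350 in the control library.

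Nuclei with Vipr2 had more Kit, an innate lymphoid marker, within the Cd3-negative class and outside it. Of 10 innate lymphoid markers, 0 were higher by at least 1 in both libraries in Cd3-negative nuclei with Vipr2. In Cd3-positive nuclei without Il5 or Il13, 7 of the 10 were higher by that size. Of 6 T-cell receptor genes with UMIs in Cd3-negative nuclei, 3 were lower by that size. In Cd3-negative nuclei, the 271 knockout and 484 control nuclei with a Vipr2 UMI had more Il1r1, an IL-1 receptor, by a log2 ratio of 1.13 in the knockout library and 0.94 in the control library. Kit, a receptor of innate lymphoid progenitors, was higher by 0.87 and 0.56, while Trac was lower by log2 ratios of -1.39 and -2.72. In Cd3-positive nuclei without Il5 or Il13, nuclei with Vipr2 had more Arg1 (1.81 and 3.33) and Kit (1.23 and 2.10) than the rest, and less Trac (-0.38 and -0.84). These Cd3-positive nuclei were also deeper, with medians of 6348 and 4137 UMIs against 2490 and 2031 UMIs without Vipr2. In the same class, nuclei over 5000 UMIs had 79.8 CPM (knockout) and 98.1 CPM (control) of Vipr2 and shallower nuclei 35.6 and 47.0 CPM, with Kit at 195 and 247 CPM against 97.9 and 92.9 CPM. Depth and these markers thus moved with Vipr2, and their part in the Cd3-positive values was not tested.

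Vipr1, the other receptor of the peptide, was near the floor. It had 3 UMIs in knockout and 4 in control Foxp3-positive nuclei, 0 and 0 in Cd3-positive nuclei with Il5 or Il13, 2 and 2 in Cd3-negative nuclei, and 2 and 20 in Cd3-positive nuclei without Il5 or Il13. Only the last control value, 3.53 CPM (2.15 to 5.45), stood clear of the limit that a count of 0 allows there (0.529 CPM), and the log2 ratio of knockout over control in that class was -2.78 (-6.21 to -1.03). With 22 UMIs in all it missed the minimum of 50 set for that comparison. Nmur1, the neuromedin U receptor, had 4 UMIs (17.1 CPM, 4.66 to 43.8) in knockout and 1 UMI (9.65 CPM, 0.244 to 53.8) in control Cd3-positive nuclei with Il5 or Il13. In Cd3-positive nuclei without Il5 or Il13 it had 7 UMIs (1.47 CPM, 0.591 to 3.03) and 6 UMIs (1.06 CPM, 0.388 to 2.30). Foxp3-positive nuclei held 2 and 1 Nmur1 UMIs and Cd3-negative nuclei 3 and 5. The log2 ratio of Nmur1 in Cd3-positive nuclei with over without Il5 or Il13 was 3.61 (1.32 to 5.52) in the knockout library. In the control library it was 3.66 (-2.33 to 6.23). Both missed the minimum of 20 UMIs, and the 4 knockout UMIs lay in 2 nuclei. At this depth no class difference of Nmur1 was detectable in the control library.

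Adra1b, the adrenergic receptor, was likewise higher in Cd3-negative nuclei. It had 130 CPM (115 to 146) in the knockout library and 137 CPM (125 to 150) in the control library in Cd3-negative nuclei, against 34.9 CPM (29.8 to 40.6) and 25.2 CPM (21.3 to 29.7) in Cd3-positive nuclei without Il5 or Il13. The log2 ratio was 1.90 (1.62 to 2.18) and 2.44 (2.17 to 2.72). Foxp3-positive nuclei lay between, with 59.2 CPM (49.4 to 70.3) and 39.0 CPM (30.1 to 49.8). Their log2 ratio over Cd3-positive nuclei without Il5 or Il13 was 0.76 and 0.64, and 1.02 (0.11 to 1.81) and 0.37 (-0.49 to 1.10) without deep nuclei. Cd3-positive nuclei with Il5 or Il13 had 10 UMIs in the knockout library and 0 in the control library. Within Cd3-negative nuclei, Adra1b had 186 CPM (knockout) and 204 CPM (control) where no Trac or Trbc UMI was found and 75.7 and 55.2 CPM where such a UMI was found. Cd3-negative nuclei with an Adra1b UMI had more Kit, by log2 ratios of 0.77 and 0.69, and less Bcl11b, a T-cell factor, by -1.42 and -3.75. Of the 10 innate lymphoid markers, 0 were higher by at least 1 in both libraries. Of 6 T-cell receptor genes with UMIs there, 4 were lower by that size.

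**Figure D2:**
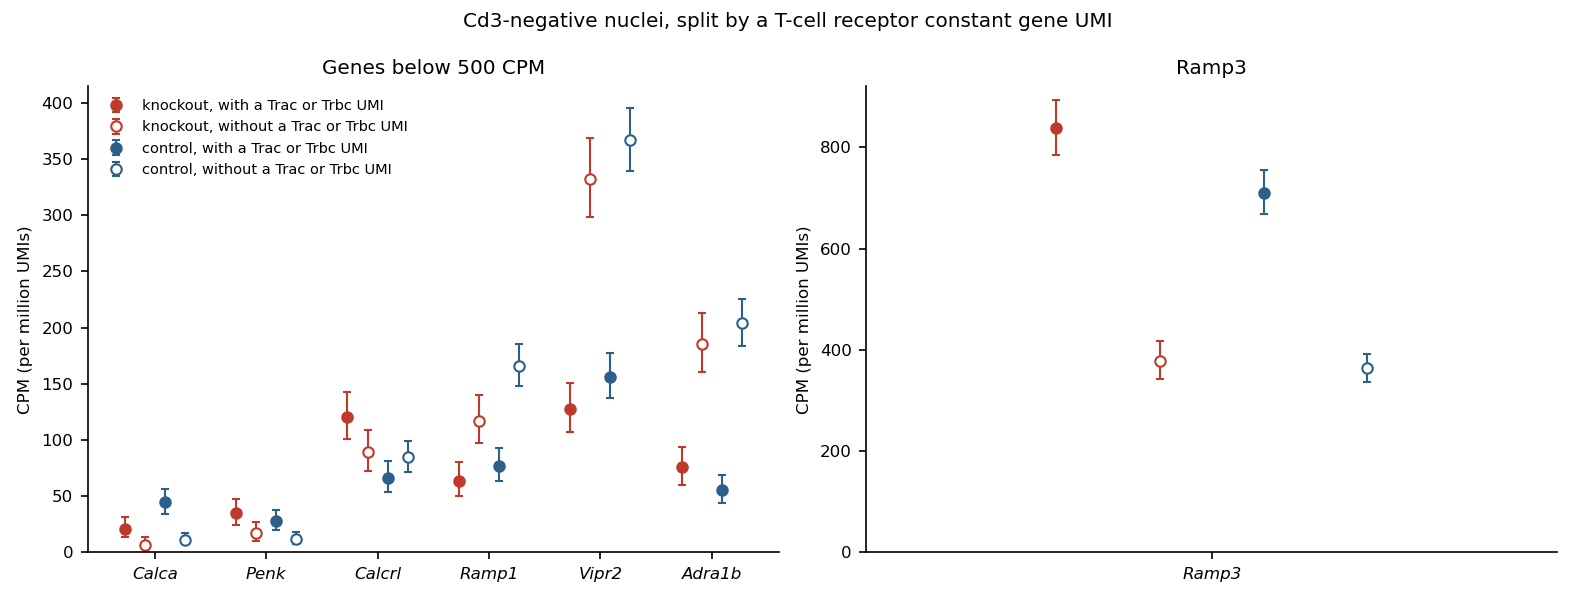
Level of 7 genes in CPM (y axis, linear and starting at 0; Ramp3 on its own scale) in Cd3-negative nuclei with (filled points) and without (open points) a UMI of Trac, Trbc1 or Trbc2, in the knockout library (red) and the control library (blue), with exact 95% counting intervals. Vipr2, Adra1b and Ramp1 are higher without such a UMI in both libraries, and Calca, Penk and Ramp3 are higher with one.

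Over the 3 class contrasts, Cd3-negative nuclei differed most. Of the 7 genes measured, 3 passed as higher in Cd3-negative nuclei (Ramp1, Vipr2 and Adra1b), against 7.63% of the 11166 genes measured, and 2 passed as lower (Calca and Penk), against 3.37%. Without nuclei over 5000 UMIs all 5 kept their direction and a size of at least 1, with log2 ratios of 1.72 and 2.39 for Ramp1, 2.76 and 2.58 for Vipr2, 2.53 and 3.04 for Adra1b, -2.24 and -1.38 for Calca and -1.68 and -2.21 for Penk in the knockout and control libraries. With each nucleus thinned to 1000 UMIs, Penk stood at -0.88 in the knockout library and -1.84 in the control library, so that it no longer passed. In Foxp3-positive nuclei 0 of 7 passed, against 0.688% of 10757 genes in either direction. Without nuclei over 5000 UMIs Calca passed there as lower, at -2.01 (-3.59 to -0.97) in the knockout library and -1.83 (-2.73 to -1.13) in the control library. Foxp3-positive nuclei then held 6 and 15 Calca UMIs.

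Genes with the most similar levels over 10 class-by-library values were named by their Pearson correlation of log2(CPM + 1) among 9915 genes; the points share 2 libraries and their depths. In these values Cd3-negative nuclei were split by Il5 or Il13, so the 4 knockout and 8 control nuclei with them, of 7122 and 15575 UMIs, enter as points of their own. For Calca these were Il17rb (0.98), Spcs3 and Hlf. For Vipr2 they were Atrnl1 (0.99), Etv6 and Plcb4, and for Adra1b Eya1 (0.99), Cx3cl1 and Gdpd5. For Penk they were Ifi27l2a, Fam210a and Phtf1, for Calcrl Usp47, Cdk8 and Tex264, for Ramp1 Mapk10, Ptprm and Ccdc148, and for Ramp3 Nedd9, Slc25a3 and Lin54.

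Knockout over control, the members differed most in Foxp3-positive nuclei. Without deep nuclei Calca changed sign, Vipr2 was smaller, Adra1b was larger and Penk stayed lower, all but Penk on few UMIs. A gene was counted where the log2 ratio was at least 0.5 in size with at least 50 UMIs over both libraries. In Foxp3-positive nuclei 3 of 7 genes were higher in the knockout library, against 7.83% of 7203 genes, and 1 was lower, against 11.0%. Calca was higher by 1.01 (0.55 to 1.51), from the 63.3 and 31.2 CPM given above. Its ratio was -0.036 without nuclei over 5000 UMIs (-1.76 to 1.34), from 6 knockout and 15 control UMIs, and after thinning each nucleus to 1000 UMIs it was -0.16. By depth, Calca had 72.6 CPM (knockout) and 45.0 CPM (control) in Foxp3-positive nuclei over 5000 UMIs and 16.6 and 17.8 CPM in shallower ones. Vipr2 was higher by 0.68 (0.33 to 1.06), and without deep nuclei by 0.25 (-0.97 to 1.32), from 11 and 22 UMIs. With at least 2 UMIs of Foxp3 or Cd3 genes asked for, Vipr2 stood at -0.14, after thinning at 1.35 and as a mean over nuclei at 0.80. As a mean over nuclei Calca stood at 0.42. Adra1b was higher by 0.60 (0.16 to 1.05), and without deep nuclei by 1.14 (0.09 to 2.18), from 17 and 18 UMIs. Without the nucleus richest in Adra1b in each library, the ratio was 0.45, under the size asked for, from 117 knockout and 65 control UMIs. Only the knockout class lost a nucleus by this, and 1 control nucleus that was kept held 9 of the 65 UMIs. Penk was lower, at -0.93 (-1.24 to -0.63), and without deep nuclei at -0.55 (-1.04 to -0.09), from 50 and 171 UMIs.

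The deep Foxp3-positive nuclei also held more Kit RNA. Kit had 208 CPM (knockout) and 249 CPM (control) in Foxp3-positive nuclei over 5000 UMIs, against 35.9 and 87.8 CPM in shallower ones. Over the whole class the 10 innate lymphoid markers summed to 2389 CPM (knockout) and 2392 CPM (control), and the 8 regulatory T-cell markers summed to 5363 CPM in the knockout library and 6709 CPM in the control library. B-cell and plasma-cell markers, with 3 of 6 at 0, summed to 153 CPM (knockout) and 31.2 CPM (control). Their part in the ratios of Calca, Vipr2, Adra1b and Penk was not tested. Calcrl differed by 0.08 (-0.21 to 0.37) over all Foxp3-positive nuclei and by 1.00 (0.41 to 1.58) without deep nuclei, from 48 and 56 UMIs. Ramp1 differed by 0.36 (-0.17 to 0.91) and Ramp3 by 0.24 (0.13 to 0.35).

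**Figure D3:**
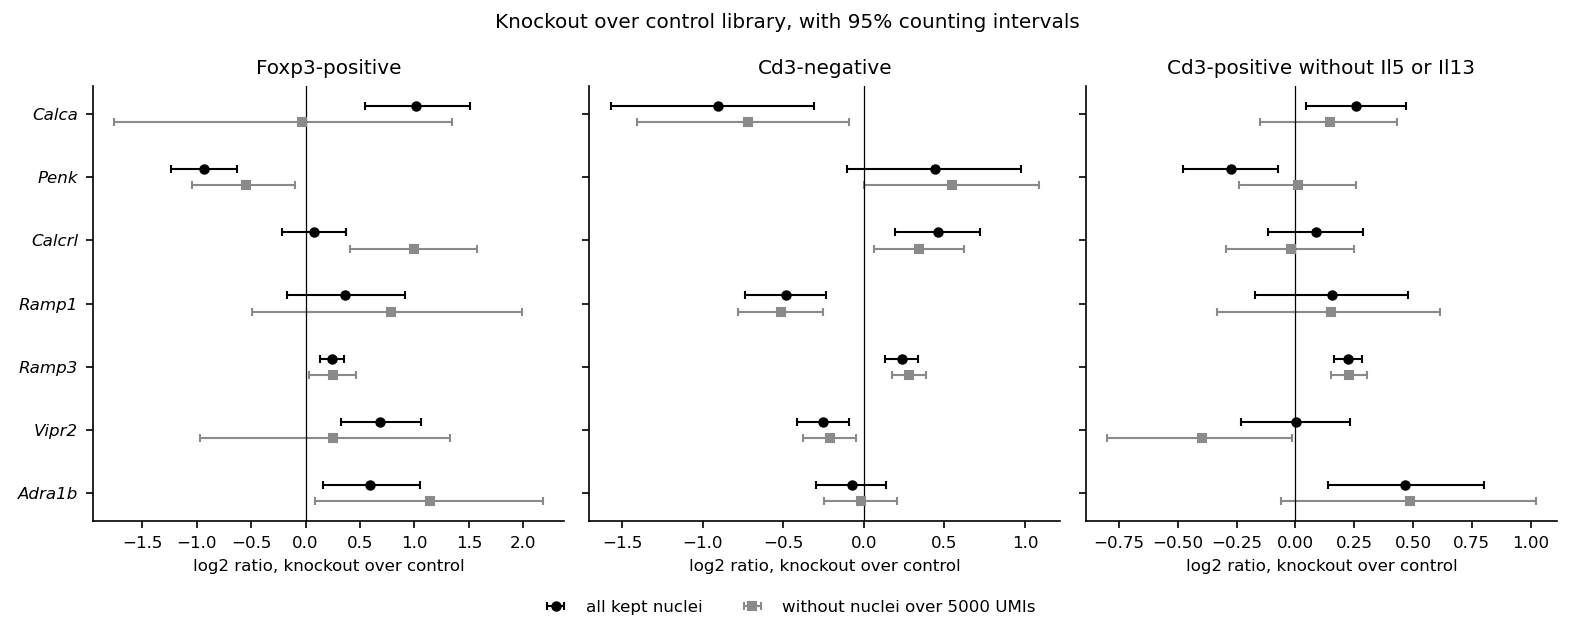
Log2 ratio of knockout over control (x axis) for 7 genes (rows) in 3 classes of nuclei, over all kept nuclei (black circles) and without nuclei over 5000 UMIs (grey squares), with exact 95% counting intervals; a value above 0 is higher in the knockout library. In Foxp3-positive nuclei Calca moves to -0.036 without the deep nuclei and Penk stays below 0 at -0.55, and in Cd3-positive nuclei without Il5 or Il13 most ratios lie near 0.

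In Cd3-positive nuclei without Il5 or Il13, the largest class, 0 of 7 genes passed, against 10.3% of 9821 genes in either direction. Adra1b differed by 0.47 (0.14 to 0.80), Calca by 0.26 (0.04 to 0.47) and Ramp3 by 0.22 (0.16 to 0.28), each with an interval above 0. Penk differed by -0.28 (-0.48 to -0.07), and by 0.01 without nuclei over 5000 UMIs. Vipr2 differed by 0.00 (-0.23 to 0.23), and by -0.40 (-0.80 to -0.02) without them. In Cd3-positive nuclei with Il5 or Il13 only 2 genes had enough UMIs and 0 passed, against 44.5% of 1378 genes. Ramp3 differed there by 0.05 (-0.25 to 0.37) and Calca by -0.15 (-0.69 to 0.44), but Calca without nuclei over 5000 UMIs stood at -1.45 (-3.55 to -0.13), from 4 knockout and 39 control UMIs. Without the nucleus richest in Calca in each library it stood at -0.75 (-1.36 to -0.13), from 55 knockout and 41 control UMIs. The control nucleus left out lay in another class, so only the knockout class lost UMIs. Of the 41 control UMIs, 12 lay in 1 nucleus that was kept, so this ratio is not a like comparison.

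In Cd3-negative nuclei 1 of 7 genes passed as lower, Calca, which stood lower in the knockout library at -0.91 (-1.57 to -0.31), against 5.56% of 8420 genes that were lower. Without deep nuclei it stood at -0.72 (-1.41 to -0.10). Among Cd3-negative nuclei without a Trac or Trbc UMI Calca had 6.56 CPM in the knockout library and 11.4 CPM in the control library. Ramp1 differed by -0.48 (-0.74 to -0.24), just under the size asked for. Calcrl differed by 0.46 (0.19 to 0.72), and by 0.28 (0.01 to 0.55) without the nucleus that held 26 UMIs. Vipr2 differed by -0.25 (-0.41 to -0.09), Ramp3 by 0.23 (0.13 to 0.34), Penk by 0.44 (-0.11 to 0.98) and Adra1b by -0.08 (-0.30 to 0.14). Ramp3 thus stood above 0 by about the same amount in Foxp3-positive, Cd3-negative and Cd3-positive nuclei without Il5 or Il13.

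The wider pathway was read from 114 other genes in 5 lists, and all 114 had a row. Nerve-derived peptides were scarce. Of 16 ligand genes, 9 had 0 UMIs in both libraries, among them Vip, Nmu, Gal and Adcyap1, and none of the 16 was measured with at least 50 UMIs in Foxp3-positive or Cd3-positive nuclei. Of 27 receptor and accessory genes, 8 had 0 UMIs in both libraries, among them the kappa opioid receptor Oprk1 and the beta-3 adrenergic receptor Adrb3. Of 19 transmitter synthesis and breakdown genes, 3 were at 0, among them Dbh, which makes noradrenaline. A count of 0 allows up to 3 UMIs in the library. Genes named in the next sentence were chosen after their values were seen. Oprm1, the mu opioid receptor on which enkephalins act, had 28.0 CPM in knockout and 34.8 CPM in control Foxp3-positive nuclei, 23.1 and 21.8 CPM in Cd3-negative nuclei, and 32.8 and 35.3 CPM in Cd3-positive nuclei without Il5 or Il13.

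In Foxp3-positive nuclei, 4 of 45 measured pathway genes were higher in the knockout library, against 7.83% of all genes, and 3 were lower, against 11.0%. The median log2 ratio was 0.01 over the 45 genes and -0.01 over all 7203 genes. The higher ones were Plcb1, a phospholipase C (1.73), Pde3b, a phosphodiesterase that breaks down cAMP (0.90), Crtc2, a CREB coactivator (0.60, -0.16 to 1.42), and the phosphodiesterase Pde4a (0.58). Among the lower ones was Pcsk1, a protease that cleaves peptide precursors (-1.02). A single knockout nucleus held most of the Plcb1 UMIs (80 UMIs with it and 12 without), and without the richest nucleus Plcb1 stood at -0.95, Pde4a at 0.38 and Crtc2 at 0.35. Without nuclei over 5000 UMIs Plcb1 had 0 UMIs left in both libraries, Pde3b stood at 0.18, Pde4a at -0.44 and Pcsk1 at 0.12, while Crtc2 (0.97) kept its direction.

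The same lists were read in the other classes, each count beside the share over all genes. In Cd3-positive nuclei without Il5 or Il13, 2 of 56 pathway genes were higher, against 4.92% of all genes, the muscarinic receptor Chrm3 (1.79) and Plcb1 (0.80), and 2 were lower, against 5.41%, Pcsk1 (-0.90) and the beta-1 adrenergic receptor Adrb1 (-0.69). All 4 kept their direction without deep nuclei. In Cd3-negative nuclei, 4 of 50 were higher, against 5.49% of all genes, the cAMP sensor Rapgef4 (2.27), the peptidase Dpp4 (0.77), the peptide-amidating enzyme Pam (0.71) and Plcb1 (0.52), and 0 were lower. Without deep nuclei Plcb1 was lower in the knockout library (interval -4.11 to -0.64) and Rapgef4 stood at 1.27. In Cd3-positive nuclei with Il5 or Il13, 3 of 21 were higher, against 24.6% of all genes, Plcb4 (1.95), Pde3b (1.16) and the transcription factor Creb1 (0.77), and 3 were lower, against 19.9%, the kinase Sik2 (-0.72), the AP-1 member Fosl2 (-0.65) and Rgs1, a brake on G protein signalling (-0.57). Without deep nuclei Creb1 stood at -0.69, Pde3b at 0.24, Rgs1 at -0.26, Sik2 at -0.39 and Fosl2 at -0.49.

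By class, 9 of 62 measured pathway genes were higher in Cd3-negative nuclei than in Cd3-positive nuclei without Il5 or Il13 in both libraries, against 7.63% of all genes, and 1 was lower, against 3.37%. The log2 ratios that follow are for the knockout and then the control library and cover every gene that passed. Receptors were Adra2a, an alpha-2 adrenergic receptor (1.74 and 1.59), and Chrm3 (1.29 and 2.63), and the ligand was Pomc, the melanocortin and endorphin precursor (1.87 and 1.31). Enzymes were Ace, which cleaves peptides (2.79 and 1.32), Ddc, which makes dopamine and serotonin (1.30 and 1.98), and Cpe, which trims peptide precursors (1.23 and 1.25). Signalling genes were Grk3, a receptor kinase (2.36 and 2.49), and the phospholipases Plcb4 (1.20 and 1.41) and Plcb1 (1.29 and 1.57). Dpp4 was lower (-1.18 and -1.46). Without deep nuclei Chrm3 (-1.53) and Plcb1 (-2.17) turned to lower in the knockout library, and the other genes kept their direction in both. In Foxp3-positive nuclei, where 0.688% of all genes passed in either direction, 1 of 59 passed as higher, Plcb1 (1.98 and 1.05), which had 0 UMIs left in Foxp3-positive nuclei of both libraries without deep nuclei, and 1 as lower, Ddc (-2.90 and -1.58), on 1 and 2 UMIs.

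The 104 regions near the members held 13 at promoters, 33 in introns or exons of the member, 25 in another gene and 33 between genes. Peaks were called separately in each library, and 88 regions had a peak in both, 8 in the knockout library only and 8 in the control library only. Accessibility was counted over the shared regions, per 1000000 counts in shared peaks (peak CPM). Summed over a gene's regions, only Adra1b of 8 genes with enough fragments passed between Cd3-negative nuclei and Cd3-positive nuclei without Il5 or Il13. Over all genes with enough fragments, summed in the same way, 4.06% of 23489 gene loci passed as higher. The log2 ratio of Adra1b was 1.49 (1.08 to 1.88) in the knockout library and 1.95 (1.48 to 2.44) in the control library. With peaks taken within 50 kb of the whole gene body, a choice made after the data were seen, no gene passed. The other genes had ratios of 0.45 and 0.85 (Ramp1), 0.33 and 0.40 (Vipr2), 0.07 and 0.01 (Nmur1), -0.11 and -0.01 (Calcrl), -0.33 and -0.39 (Ramp3), -0.38 and -0.35 (Vipr1) and -0.90 and -0.89 (Calca). In Foxp3-positive nuclei 0 of 8 passed, against 0.0218% of 22958 gene loci. In Cd3-positive nuclei with Il5 or Il13 0 of 8 passed, against 0.578% of 22504.

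Adra1b has an outer and an inner annotated start site, and both were more accessible in Cd3-negative nuclei. The outer one (chr11:43901056-43901895) had 14.8 peak CPM in knockout and 11.5 peak CPM in control Cd3-negative nuclei, against 5.71 and 3.11 peak CPM in Cd3-positive nuclei without Il5 or Il13. The inner one (chr11:43836086-43837023) had 7.97 and 9.08 peak CPM, against 2.86 and 1.84. A region beyond the outer start, between genes (chr11:43919346-43920370), had 4.10 and 3.92 peak CPM against 0.833 and 0.825. The log2 ratios of these 3 regions were 1.38 and 1.87, 1.48 and 2.29, and 2.27 and 2.21. The 250 bases before each RefSeq start are shown to compare them, both on the minus strand, at chr11:43901238-43901487 and chr11:43836490-43836739 (GRCm38.p6).

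Adra1b outer start: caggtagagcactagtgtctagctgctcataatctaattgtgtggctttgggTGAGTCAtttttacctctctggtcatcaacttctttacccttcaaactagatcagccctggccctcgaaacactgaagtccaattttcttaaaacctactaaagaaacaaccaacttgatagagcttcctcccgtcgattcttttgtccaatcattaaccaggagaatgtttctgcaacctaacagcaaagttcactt
Adra1b inner start: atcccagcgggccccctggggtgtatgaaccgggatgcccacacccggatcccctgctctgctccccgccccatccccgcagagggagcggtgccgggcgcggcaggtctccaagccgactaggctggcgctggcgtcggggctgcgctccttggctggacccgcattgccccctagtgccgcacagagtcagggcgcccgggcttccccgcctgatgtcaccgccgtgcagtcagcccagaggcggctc

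The capitals in the outer window mark TGAGTCA, a match to the AP-1 motif TGANTCA, and no other motif searched was found in either window. The outer window had 41.6% G or C and 3 CpG sites, the inner one 72.8% and 22, and the median over all promoter windows was 52.4% G or C.

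**Figure D4:**
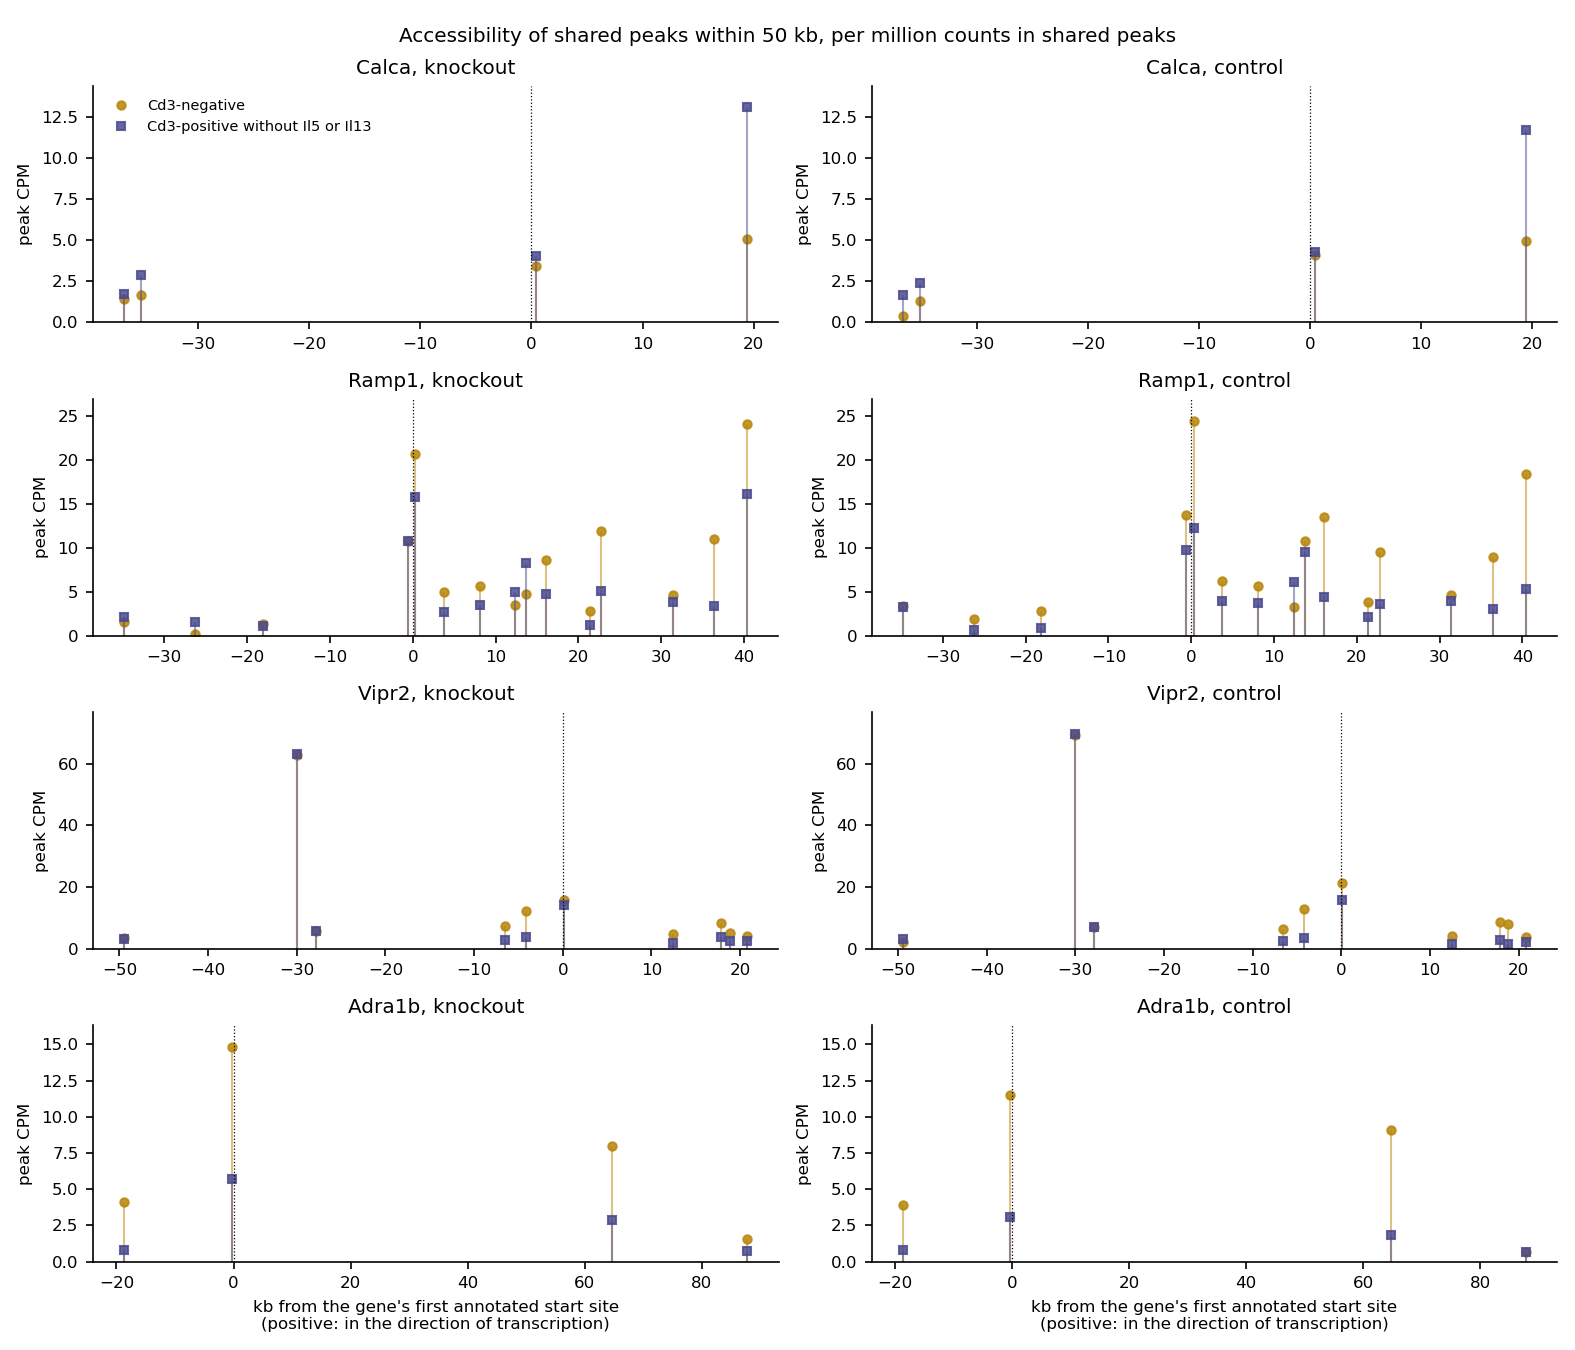
Accessibility of shared regions within 50 kb of Calca, Ramp1, Vipr2 and Adra1b in peak CPM (y axis, linear and starting at 0, same scale in both columns of a row) by distance in kb from the first annotated start site (x axis, positive along transcription), in the knockout library (left) and the control library (right), for Cd3-negative nuclei (circles) and Cd3-positive nuclei without Il5 or Il13 (squares). At Adra1b the Cd3-negative values are higher at both start sites, and at Calca the downstream region is lower (5.09 against 13.1 peak CPM in the knockout library).

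At Vipr2 the start site differed little and its surroundings differed more. The promoter region (chr12:116077348-116078313) had 15.7 peak CPM in knockout and 21.2 peak CPM in control Cd3-negative nuclei, against 14.2 and 15.7 peak CPM in Cd3-positive nuclei without Il5 or Il13. Upstream, chr12:116073081-116074054 had 12.2 and 13.0 peak CPM against 3.81 and 3.49, log2 ratios of 1.67 and 1.89. Further upstream, chr12:116070741-116071657 had 7.31 and 6.21 against 2.86 and 2.41. A promoter of the neighbouring gene Zfp386 within the same window had 62.7 and 69.3 peak CPM against 62.9 and 69.7. The sums over the locus were 129 and 144 peak CPM against 103 and 109, so a region that differed little was a large part of them. The window before the start, at chr12:116077476-116077725 on the plus strand, is shown because it lies inside the promoter region.

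Vipr2: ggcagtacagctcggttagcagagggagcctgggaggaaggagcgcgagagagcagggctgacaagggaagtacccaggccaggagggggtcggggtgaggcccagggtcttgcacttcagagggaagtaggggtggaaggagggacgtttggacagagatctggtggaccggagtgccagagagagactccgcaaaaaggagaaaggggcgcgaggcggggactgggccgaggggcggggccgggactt

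This window had 65.2% G or C and 13 CpG sites, and none of the motifs searched was in it. Vipr1, by contrast with its few UMIs, had an accessible promoter (chr9:121642228-121643082), with 17.3 peak CPM in each library in Cd3-negative nuclei, against 27.2 (knockout) and 32.8 (control) in Cd3-positive nuclei without Il5 or Il13. Its window had 72.8% G or C and 30 CpG sites.

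Ramp1 was more accessible in Cd3-negative nuclei at a promoter region and inside the gene. Of its 2 promoter regions, 1 (chr1:91179692-91180542) had 20.7 peak CPM in knockout and 24.5 peak CPM in control Cd3-negative nuclei. Against these stood 15.8 and 12.2 peak CPM in Cd3-positive nuclei without Il5 or Il13. An intronic region (chr1:91215781-91216731) had 11.0 and 8.89 peak CPM against 3.39 and 2.98, log2 ratios of 1.69 and 1.57, and another (chr1:91202070-91203061) had 12.0 and 9.46 against 5.12 and 3.55. At Calca the promoter region (chr7:114635497-114636344) was alike, with 3.43 and 4.11 peak CPM in Cd3-negative nuclei against 4.05 and 4.32. A region between genes downstream of Calca (chr7:114616463-114617394) had 5.09 and 4.97 peak CPM against 13.1 and 11.7, log2 ratios of -1.35 and -1.23, and 13.0 (knockout) and 8.36 (control) in Foxp3-positive nuclei. At Ramp3, a region downstream of the gene (chr11:6679642-6680537) had 55.6 and 48.5 peak CPM in Cd3-negative nuclei against 83.2 and 87.9, log2 ratios of -0.58 and -0.86. Penk had 2 regions, with 18 (knockout) and 13 (control) fragments over both in Foxp3-positive nuclei, too few to set against its RNA.

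Between genotypes the loci differed little. Of 9 genes, 1 passed in Cd3-positive nuclei without Il5 or Il13, against 2.86% of 23792 gene loci that were higher. This was Adra1b, higher in the knockout library by 0.64 (0.15 to 1.17). With peaks taken within 50 kb of the whole gene body it stood at 0.069. Its RNA in that class differed by 0.47, as given above. In Foxp3-positive nuclei 0 of 8 loci passed, against 3.86% of 22210 gene loci. In Cd3-negative nuclei 0 of 8 passed, against 2.14% of 23332, and in Cd3-positive nuclei with Il5 or Il13 0 of 4, against 18.3% of 13589.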

How the data were processed

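The deposited matrices hold, per barcode, whole-number counts that the authors produced: UMI counts for 32285 genes and counts of transposase cuts in peaks. Per the submitters' processing notes they used Cell Ranger ARC 2.0.1 and the mm10 build; the sources used here do not give other upstream steps. Other numbers in the deposited feature tables, the interval ends, were used as positions only. Peaks were called separately in each library (85738 knockout and 83851 control), and 85.8% and 87.7% overlapped a peak of the other. Since 90.7% (knockout) and 91.7% (control) of peak values were even, intervals were computed on fragments (count divided by 2, rounded up).

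Barcodes were left out under 500 UMIs, under 300 genes or above 10% mitochondrial UMIs (45 knockout, 47 control). Median depth was 2270 UMIs (knockout) and 1996 UMIs (control) over all barcodes. No doublet caller was run. An alternative leaves out nuclei over 5000 UMIs. Another leaves out the nucleus richest in a gene among all kept nuclei of each library, so a class can lose a nucleus in 1 library only. UMIs were summed over the nuclei of a class in each library and divided by the class total (CPM). Log2 ratios carry a pseudocount of 0.5 UMI. Intervals are exact: Poisson for sums, Clopper-Pearson for shares, conditional binomial for ratios; PCR duplicates aside, they cover counting error only. With 1 library per genotype no test across samples exists, and no p-value was computed. In the loci, a size of 1 by class and of 0.5 between genotypes was asked for, with at least 50 fragments. The intervals in the deposited feature tables follow GENCODE start sites. Promoter sequences are from RefSeq (GRCm38.p6, the same coordinates as mm10), where 8 of 9 genes matched; Penk is named only.

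All 9 members were named in each class. Of the pathway lists, the 2 highest and 2 lowest ratios of each list were to be named, together with marker genes and the 3 genes most alike; the genes that passed were then named too, except some results that are not reported here. The genes, lists and rules were chosen with earlier results of these data known. The fold and interval code was tested on simulated data. Work used Python 3.11.15, NumPy 2.4.6, SciPy 1.17.1 and pandas 2.3.3.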

Additional observations from a re-analysis of the deposited data

Results flagged for a closer look

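Calca and Vipr2 had knockout over control log2 ratios of opposite direction in different classes of nuclei. Calca stood at 1.01 in Foxp3-positive nuclei and at -0.91 in Cd3-negative nuclei. In Cd3-positive nuclei without Il5 or Il13 it stood at 0.26, again against -0.91 in Cd3-negative nuclei. Vipr2 stood at 0.68 in Foxp3-positive nuclei and at -0.25 in Cd3-negative nuclei. With 1 library per genotype the difference between classes was not tested. Without nuclei over 5000 UMIs, Calca stood at -0.036 and Vipr2 at 0.25 in Foxp3-positive nuclei.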

How the results depend on the processing

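No paired analysis was possible because each genotype has 1 library and no test was run. Of the single-gene values, 653 moved by less than their counting interval, 96 moved by more and 3 values past the size rule changed sign (changes of sign in smaller values are among the others): Calca in Foxp3-positive nuclei, knockout over control, at -0.036 without nuclei over 5000 UMIs and -0.16 when thinned to 1000 UMIs, and Vipr2 there at -0.14 with at least 2 Foxp3 or Cd3 UMIs. Counts of genes past the size rule that moved were these, and the cause was not tested. Members in Foxp3-positive over Cd3-positive nuclei without Il5 or Il13 (0) came to 1 without deep nuclei, when thinned, with the 2-UMI rule or at a size of 0.6. Knockout over control, members in Foxp3-positive nuclei (4) came to 2 without deep nuclei or thinned. Without deep nuclei these were Penk (-0.55) and Calcrl (1.00), which was not among the 4. Calca, Vipr2 and Adra1b missed the minimum of 50 UMIs there. Members in Cd3-positive nuclei with Il5 or Il13 (0) came to 1 without deep nuclei, thinned, with the 2-UMI rule or without the top nucleus. In those without Il5 or Il13 (0) they came to 1 as a mean over nuclei, with the 2-UMI rule, at a minimum of 20 UMIs or at a size of 0.3. In Cd3-negative nuclei (1) they came to 3 without deep nuclei, 2 thinned, as a mean over nuclei or without the top nucleus, 0 without Trac or Trbc UMIs and 4 at a size of 0.3. Pathway genes came to 4 thinned or without the top nucleus and 21 at 0.3 in Foxp3-positive nuclei (7), and to 3 thinned, 11 at a minimum of 20 and 12 at 0.3 in Cd3-positive nuclei with Il5 or Il13 (6). They came to 15 at 0.3 in those without (4), and in Cd3-negative nuclei (4) to 2 without deep nuclei, 8 without Trac or Trbc UMIs or at a minimum of 20, and 15 at 0.3. Loci in Cd3-negative nuclei (1) came to 2 without Trac or Trbc UMIs or at 0.6, and to 0 with peaks taken within 50 kb of the whole gene body, an alternative chosen after seeing the data. In Cd3-positive nuclei with Il5 or Il13 they came to 1 at 0.6. Knockout over control, loci came in Foxp3-positive nuclei (0) to 1 without deep nuclei or with all peaks and 2 at 0.3, in Cd3-positive nuclei with Il5 or Il13 (0) to 1 without deep nuclei or at 0.3, and in those without (1) to 2 at 0.3 and 0 with the gene body. Ramp1 among nuclei with Calcrl came, when thinned, to 0% and 0% in Foxp3-positive, 2.56% and 2.94% in Cd3-positive nuclei without Il5 or Il13 and 9.47% in control Cd3-negative nuclei. Ramp3 among them came to 25% and 42.9%, 60.3% and 41.2%, and 23.8% and 27.4% in the same order of classes, knockout and then control.

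The main limits are 1 library per genotype, classes set by single UMIs, and depth that differs between classes and libraries. With 3 UMIs taken as the limit of a count of 0, Cd3-positive nuclei with Il5 or Il13 resolve no level below 12.8 CPM (knockout) and 28.9 CPM (control), against 0.630 and 0.529 CPM in those without.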
